A study of Mus musculus with 2 samples.

Results

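The genes described here encode the growth factor FGF4, its 4 receptors (Fgfr1, Fgfr2, Fgfr3 and Fgfr4) and the proteins that join an active receptor to RAS (Frs2, Grb2, Sos1, Ptpn11 and Gab1), in mouse embryonic stem cells with and without overexpression of the long noncoding RNA lincU. The 10 genes were chosen by name, and a gene counted as measured where at least 1 probe set was named to it alone. By this rule 22 of 15273 singly named probe sets belonged to 9 of the 10 genes, out of 10313 genes in all. Frs2, which encodes the docking protein of the receptors, had no such probe set and was not measured.

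RNA came from 2 cultures of the mouse embryonic stem cell line 46C, in which the Sox1 locus reports through green fluorescent protein. The lincU overexpression group had 1 array and the control group 1 array. Both cultures were grown on feeders, with 15% serum and leukaemia inhibitory factor at 1000 U/ml, and the feeders were taken away before RNA was harvested. The labels do not say how lincU was expressed, what the control cells carried or whether either line was a single clone. No probe set was named lincU, so the overexpressed RNA itself was not measured. The tissue label was checked against stem cell markers, of which all 9 measured were bright, 5 of them higher and 4 lower in overexpressing cells, with a median log2 difference of 0.18. The pluripotency factor gene Pou5f1 had log2 signals of 13.34 in overexpressing and 13.55 in control cells. The widest differences were in Esrrb at 0.65, Nanog at 0.57 and Lin28a at -0.53. Another bright probe set of Esrrb stood at 0.17, and another bright one of Lin28a at -1.45.

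Fibroblast growth factors bind receptor tyrosine kinases together with heparan sulfate. The active receptor phosphorylates the docking protein FRS2, which recruits the adaptor GRB2 with the RAS exchange factor SOS1, and the phosphatase SHP2, the product of Ptpn11. RAS then starts the RAF, MEK and ERK cascade. Mouse embryonic stem cells make FGF4 themselves, and its signal through ERK is known to ready them to leave the naive state, mainly through FGFR1 and, in primitive endoderm, FGFR2 as well.

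In overexpressing cells the ligand gene Fgf4 had a slightly higher signal than in control cells, and the receptor genes Fgfr1 and Fgfr2, the SHP2 gene Ptpn11 and the docking protein gene Gab1 had lower ones. Fgf4 differed by 0.30 on the log2 scale (overexpression minus control), Fgfr2 by -0.73, Ptpn11 by -0.42, Gab1 by -0.29 and Fgfr1 by -0.17. The share of bright genes at least as far from 0 was 7.04% for Fgfr2, 20.1% for Ptpn11 and 32.6% for Fgf4. It was 34.7% for Gab1 and 54.3% for Fgfr1. Of the 3 bright probe sets of Gab1, 1 was higher, at 0.09. Grb2 stood at 0.05 and Sos1 at 0.08. Fgfr3 and Fgfr4 were dim on both arrays. No member was bright and at least 2-fold different, and 1 of the 6 bright members, Fgfr2, was at least 1.5-fold different. Fgfr2 counted as bright through its higher, control signal, so that the difference itself helped it to be counted. It was not counted with brightness set at the 75th percentile, and it has no probe set outside the shared or mixed types.

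A gene is represented here by whichever of its probe sets had the highest mean over both arrays. It is bright where the array with the higher signal reaches its own median, 7.90 for overexpressing and 7.96 for control cells, and dim otherwise. Signals under the 25th percentile of an array, 5.65 for overexpressing and 5.73 for control cells, were raised to it, and a difference with both arrays under this floor was set to 0. Of all 5609 bright genes, 2.83% were at least 2-fold different, 1.53% higher and 1.3% lower. At least 1.5-fold different were 11.3%, with 4.65% higher and 6.69% lower, so the 1 member past 1.5-fold is close to what this background holds among 6 genes. The balance of these calls depends on the scaling: 261 genes were higher and 375 lower as deposited, 320 higher and 302 lower with each array centred on its median, and 299 higher and 318 lower with a loess trend subtracted. With 1 array per group no difference has a replicate check or a test. The repeat measurement at hand is how far the difference varies among the bright probe sets that read 1 gene, with an SD of 0.23 in 1732 genes. That SD was 0.33 for the 347 dimmest of those genes and 0.15 for the 347 brightest, and it holds no variation between cultures. Set against the SD of genes of like signal, the differences of Fgfr2 and Ptpn11, with 1 bright probe set each, were larger than 0.33. That of Fgf4 was larger than 0.20. That of Gab1 was larger than 0.15, although the 3 bright probe sets of Gab1 themselves spanned 0.38. On their representative probe sets, the differences of Fgfr1 and Grb2 were smaller than 0.33, the SD of their signal group. With both Fgfr1 probe sets averaged, its difference was -0.46.

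**Figure D1:**
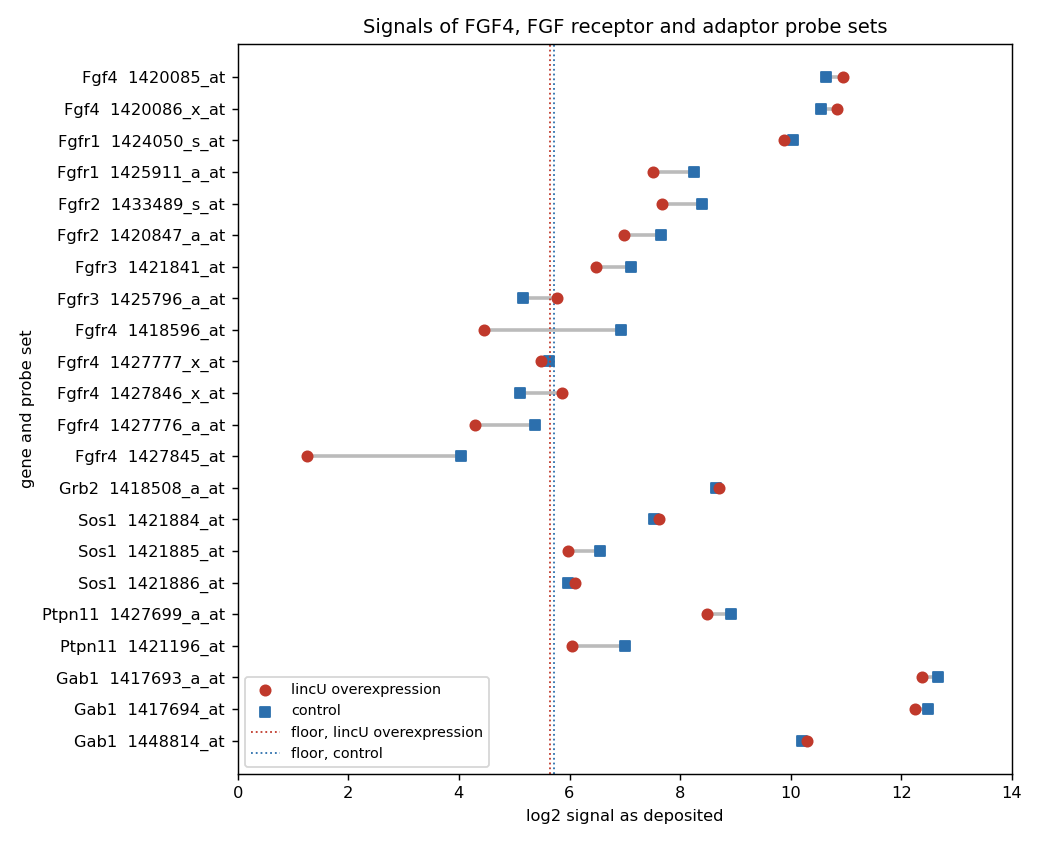
Log2 signal as deposited (horizontal axis) of each of the 22 probe sets of the 9 measured genes (rows), with circles for the lincU overexpression array, squares for the control array and dotted lines for the floor of each array. Fgf4 lies to the right of its control on both probe sets, both Fgfr1 and both Fgfr2 probe sets lie to the left of theirs, and Fgfr4 has 1 signal that is clear of the floor, 6.93 in control cells.

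Fgf4, the ligand, had log2 signals of 10.95 in overexpressing and 10.64 in control cells on probe set 1420085_at. The other probe set, 1420086_x_at, gave 10.84 in overexpressing and 10.54 in control cells. The differences of the 2 probe sets, both 0.30, lie within 0.0041 of each other, although their names differ in type and they may share probes. Fgf4 was thus 1.23-fold higher, and 14.1% of bright genes were at least as much higher.

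Fgf4 lies on distal chromosome 7 beside 2 other ligand genes of the family. These neighbours, picked after their values were seen, did not share a direction. Fgf3 was dim, at 6.47 in overexpressing and 5.93 in control cells, and Fgf15 was at 8.13 in overexpressing and 8.14 in control cells. Ccnd1, which encodes cyclin D1 and lies a little further on, differed by -0.28. Of the 12 bright genes around Fgf4 by gene order in assembly GRCm38.p6, 6 were higher and 6 lower, with a median of 0.02.

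Fgfr2, which encodes the FGF receptor known from primitive endoderm and trophoblast, had log2 signals of 7.67 in overexpressing and 8.40 in control cells on probe set 1433489_s_at. Probe set 1420847_a_at gave 6.98 in overexpressing and 7.65 in control cells. Both were lower in overexpressing cells, at -0.73 and -0.67, although only the first was bright, since it reached the array median in control but not in overexpressing cells. The brighter one corresponds to a signal 1.66-fold lower, and 4.05% of bright genes were at least as much lower. Both probe sets are of types that can bind several transcripts, so a change of isoform and a change of level cannot be told apart here.

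The 250 bases before the annotated starts of Fgf4 and Fgfr2 are shown because these were the bright members with the highest and the lowest difference. They come from RefSeq, build GRCm38.p6, and run 5′ to 3′ on the strand of the gene. Capitals mark GC boxes (GGGCGG) and CCAAT boxes (CCAAT), searched on both strands.
Fgf4, chr7:144861136-144861385, plus strand: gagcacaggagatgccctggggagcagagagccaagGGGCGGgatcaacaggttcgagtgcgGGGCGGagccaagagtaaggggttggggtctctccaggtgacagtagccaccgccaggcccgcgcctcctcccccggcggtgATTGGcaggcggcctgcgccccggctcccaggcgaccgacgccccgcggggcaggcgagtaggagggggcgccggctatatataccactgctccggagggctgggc
Fgfr2, chr7:130266809-130267058, minus strand: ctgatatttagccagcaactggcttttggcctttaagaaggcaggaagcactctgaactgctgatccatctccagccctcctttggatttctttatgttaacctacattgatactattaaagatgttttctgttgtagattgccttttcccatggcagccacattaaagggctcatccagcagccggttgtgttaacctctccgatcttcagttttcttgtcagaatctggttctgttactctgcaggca
The Fgf4 window held 2 GC boxes and 1 CCAAT box, the CCAAT box on the opposite strand, and 71.2% of its bases were G or C. The Fgfr2 window held neither motif and was 44% G or C, against a median of 52.4% over 32851 such windows of all genes. A GC box was found in 32.7% of those windows and a CCAAT box in 33.8%. The 9 members with a window include Frs2, which was not measured, and leave out Fgfr1, which had no window. Of these 9, 6 had a GC box in at least 1 window, and Fgfr2, Grb2 and Sos1 had none. Counted by window, as for the 32.7%, 8 of their 12 windows had a GC box. These matches describe the annotated starts, and which start the cells used was not measured.

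Fgfr1, the main FGF receptor gene of embryonic stem cells, had log2 signals of 9.88 in overexpressing and 10.05 in control cells on probe set 1424050_s_at. On probe set 1425911_a_at it had 7.50 in overexpressing and 8.25 in control cells. The receptor was lower on both, but by unequal amounts, at -0.17 and -0.74, a gap of 0.57 between 2 readings of the same gene. The brighter probe set stands for the gene in the counts, and with both averaged Fgfr1 differed by -0.46.

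Fibroblasts also express Fgfr1, and feeder cells are usually fibroblasts. Of 18 feeder markers 16 were measured and 11 were bright, 6 of these higher and 5 lower, and none of the 16 stood at 0 on either array. Their summed linear signal was 18306 in overexpressing and 18272 in control cells, with a median difference of 0.01. The sum mostly follows its brightest gene, Vim, at log2 13.27 in overexpressing and 13.34 in control cells. Of the bright markers, the widest differences were in Pdgfrb at 0.69, Mmp2 at -0.46 and Prrx1 at 0.29. Mmp2 had another bright reading of 0.20. Pdgfrb had a dim probe set at -0.98, with its value in overexpressing cells raised to the floor. Among the dim markers, Pdgfra stood at 1.31, with its control value raised to the floor, Lum at 0.42 and Twist1 at -0.26. The part of feeder RNA in the Fgfr1 signal was not tested. In bulk RNA fewer cells of a type and less RNA per cell cannot be told apart.

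Fgfr3 had log2 signals of 6.49 in overexpressing and 7.12 in control cells on probe set 1421841_at, a difference of -0.63. On probe set 1425796_a_at the order was the other way, with 5.77 in overexpressing and 5.17 in control cells, the control value lying under the floor. No direction for this receptor gene follows from readings that oppose each other at such low signal.

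Fgfr4 had 5 probe sets, and the array readings were mostly under the floor. Probe set 1418596_at had 4.45 in overexpressing and 6.93 in control cells, a difference of -1.28 (2.43-fold lower) once the value of overexpressing cells is raised to the floor. That size depends on where the floor is set: with the floor at the 40th percentile it was 0, and with no floor -2.48. The other probe sets had 5.49, 5.87, 4.28 and 1.26 in overexpressing cells, against 5.63, 5.10, 5.38 and 4.04 in control cells. Of these 4, 3 were under the floor on both arrays. Fgfr4 was therefore read above the floor in control cells on 1 probe set and in overexpressing cells on 1 other, and it was not counted. With no brightness rule Fgfr2, Fgfr3 and Fgfr4 would each be at least 1.5-fold lower, as were 8.44% of all genes, and Fgfr4 at least 2-fold lower, as were 2.19%.

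Of the 11 probe sets of the 4 receptor genes, 5 were above the floor on both arrays. All 5 were lower in overexpressing cells, and they belong to Fgfr1, Fgfr2 and Fgfr3. As deposited, 9 of the 11 were lower. The higher ones, 1 of Fgfr3 at 0.60 and 1 of Fgfr4 at 0.77, fell outside the 5 because their control signals lay under the floor. Among all 10755 named probe sets above the floor on both arrays, 52.0% were lower. Probe sets of the same gene share their RNA and are not separate observations.

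**Figure D2:**
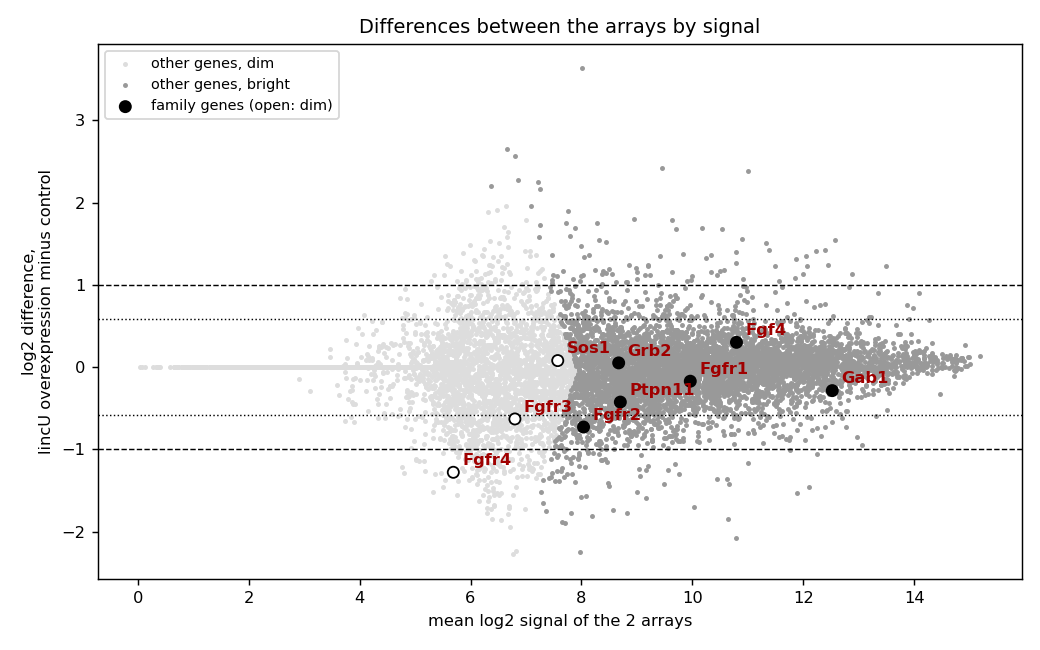
Log2 difference, lincU overexpression minus control (vertical axis), against the mean log2 signal of both arrays (horizontal axis) for 10313 genes, with dotted lines at 1.5-fold, dashed lines at 2-fold and the 9 measured members as large points (filled where bright, open where dim). Fgfr2 lies just under the lower dotted line, Fgfr4 under the dashed line in the dim range, and the other bright members lie within the dotted lines.

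Ptpn11, which encodes the phosphatase SHP2 that is needed for full RAS activation by growth factor receptors, had log2 signals of 8.49 in overexpressing and 8.91 in control cells on probe set 1427699_a_at. On the dimmer probe set 1421196_at it had 6.04 in overexpressing and 7.00 in control cells. Both readings were lower in overexpressing cells, at -0.42 and -0.97. For the brighter one, 11.8% of bright genes were at least as much lower.

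Gab1, a docking protein gene whose product binds SHP2 and phosphoinositide 3-kinase, had 3 bright probe sets. On 1417693_a_at it had 12.38 in overexpressing and 12.66 in control cells, and on 1417694_at 12.25 in overexpressing and 12.48 in control cells. The remaining one, 1448814_at, had 10.29 in overexpressing and 10.20 in control cells. The first pair of readings was lower, at -0.29 and -0.23, and the remaining one higher, at 0.09. The gap of 0.38 between readings exceeds the lower differences themselves, and 19.5% of bright genes were at least as much lower as the first.

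Grb2, the adaptor gene that links phosphorylated tyrosines to SOS proteins, had 8.70 in overexpressing and 8.65 in control cells on its only probe set, 1418508_a_at. Sos1, the RAS exchange factor gene, was dim, with 7.61 in overexpressing and 7.53 in control cells on probe set 1421884_at. Its other probe sets gave 5.98 and 6.09 in overexpressing cells against 6.55 and 5.98 in control cells. Sos1 was thus higher on 2 readings and lower on 1, and with the 3 averaged it stood at -0.13 in place of 0.08. The difference of Grb2 was smaller than the SD of 0.33 between bright probe sets of genes of like signal. Sos1 had no bright probe set, so that SD does not apply to it, and its own readings spanned 0.68.

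As a group, the 9 measured members had a median log2 difference of -0.29, with 3 higher and 6 lower, and the 6 bright ones had a median of -0.23. The lower members include Fgfr3 and Fgfr4, whose readings lie near the floor. Of all 10313 genes, 3934 were higher, 4346 lower and 2033 at 0. The median over all genes was 0, and over all bright genes 0.00, of which 49.8% were lower. The 20 bright genes around Fgfr2 by gene order, from Srcap to Ctbp2, had a median of -0.03 and ranged between -0.71 and 0.63. For Ptpn11 that median was -0.07, for Fgfr1 0.09 and for Gab1 0.08. The neighbours of these members did not share their lower signals as a group.

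The wider pathway was described with lists of named genes, beginning with the ligands. Of 23 FGF ligand genes 17 were measured and 4 were bright. Apart from Fgf4 these were Fgf17 at -0.78, Fgf13 at -0.39 and Fgf15 at 0.00. Fgf17, a ligand gene of the FGF8 subfamily, had 8.39 in overexpressing and 9.18 in control cells. Fgf13, which encodes an intracellular family member that is not secreted, had another, dim probe set at 0.16. Fgf5, the ligand gene of the primed epiblast, was among 7 under the floor on both arrays.

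Genes of FGF co-receptors and of heparan sulfate, which holds ligand and receptor together, had 11 bright of 17 measured, 1 higher and 10 lower, with a bright median of -0.31, against 49.8% lower and a median of 0.00 over all bright genes. Extl3, a glycosyltransferase gene of heparan sulfate synthesis, was at 8.65 in overexpressing and 9.38 in control cells, a difference of -0.74. Sulf2, which encodes an enzyme that removes sulfate from heparan sulfate outside the cell, differed by -0.69. The proteoglycan gene Sdc1 differed by -0.47 and -0.34 on its brightest probe sets and by 0.45 on another bright one. Of the 11, 2 were at least 1.5-fold lower, against 6.69% of all bright genes. The alpha- and beta-Klotho genes Kl and Klb, co-receptors for the hormone-like FGFs, were under the floor on both arrays.

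Other proximal signalling genes had 15 bright of 22 measured, 4 higher and 11 lower, with a bright median of -0.20, against 49.8% lower over all bright genes. The phospholipase gene Plcg2 differed by -0.75, and the SRC-family kinase genes Fyn and Yes1 by 0.55 and 0.46, with a second bright probe set of Fyn at 0.04. Fyn had 8.36 in overexpressing and 7.81 in control cells, and was bright through the overexpression array. Frs3, the relative of the unmeasured Frs2, was dim, at 7.62 in overexpressing and 7.86 in control cells. Other receptor tyrosine kinase genes had 11 bright of 31 measured, 5 higher and 6 lower, with a bright median of -0.27. Epha1 differed by -0.85, with 7.68 in overexpressing and 8.54 in control cells, and was bright through the control array. Its other probe sets were under the floor on both arrays. Epha4 differed by 0.65 and 0.08 on its 2 probe sets, and Pdgfrb by 0.69 on its bright probe set, while its dim one was lower.

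Downstream of the receptors the RAS-ERK kinase list had 7 bright of 8 measured, 3 higher and 4 lower, with a bright median of -0.03. None of the 7 was past 1.5-fold, against 11.3% of all bright genes, so this count is close to that share. Its widest differences were in Rras at -0.31, Rras2 at -0.23 and Braf at -0.22. The 8 feedback genes measured were all bright, 2 higher and 6 lower, with a median of -0.31, against 49.8% lower over all bright genes. Spry2 and Spred1, inhibitors of receptor signalling to ERK, differed by -0.69 and -0.62, and Spry4, of the same family as Spry2, by 0.84. Another bright probe set stood at -1.01 for Spry2, -0.53 for Spred1 and 0.43 for Spry4.

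Fgfr2 is also known from trophoblast and primitive endoderm, so markers of both were set beside it. Trophoblast markers had 5 bright of 9 measured, 1 higher and 4 lower, with a bright median of -1.25, and 3 of them were at least 2-fold lower, against 1.3% of all bright genes. Cdx2, the trophoblast transcription factor gene, had 6.76 in overexpressing and 8.65 in control cells, and was bright through the control array. Of the simple-epithelium keratin genes, Krt8 had 8.78 in overexpressing and 10.21 in control cells, and Krt18 had 8.54 in overexpressing and 9.79 in control cells. The summed linear signal of the 9 was 2560 in overexpressing and 4472 in control cells, and none stood at 0. Eomes was slightly higher, at 0.20, and Elf5 was under the floor on both arrays. The part of trophoblast-marked cells in the Fgfr2 difference was not tested.

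Primitive endoderm markers had 2 bright of 8 measured, and of the 8, 4 were higher and 4 lower. Amn was lower at -0.76 and Dab2 stood at 0.06. Amn had 7.23 in overexpressing and 7.99 in control cells, and was bright through the control array. The transcription factor genes Gata6, Gata4 and Sox17 were dim and stood at 0.54, 0.03 and -0.03. The other dim markers were Pdgfra at 1.31, with its control value raised to the floor, Foxa2 at -0.76 and Sox7 at -0.72, with its value in overexpressing cells raised to the floor. The summed linear signal of the 8 was 928 in overexpressing and 975 in control cells, and none stood at 0.

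**Figure D3:**
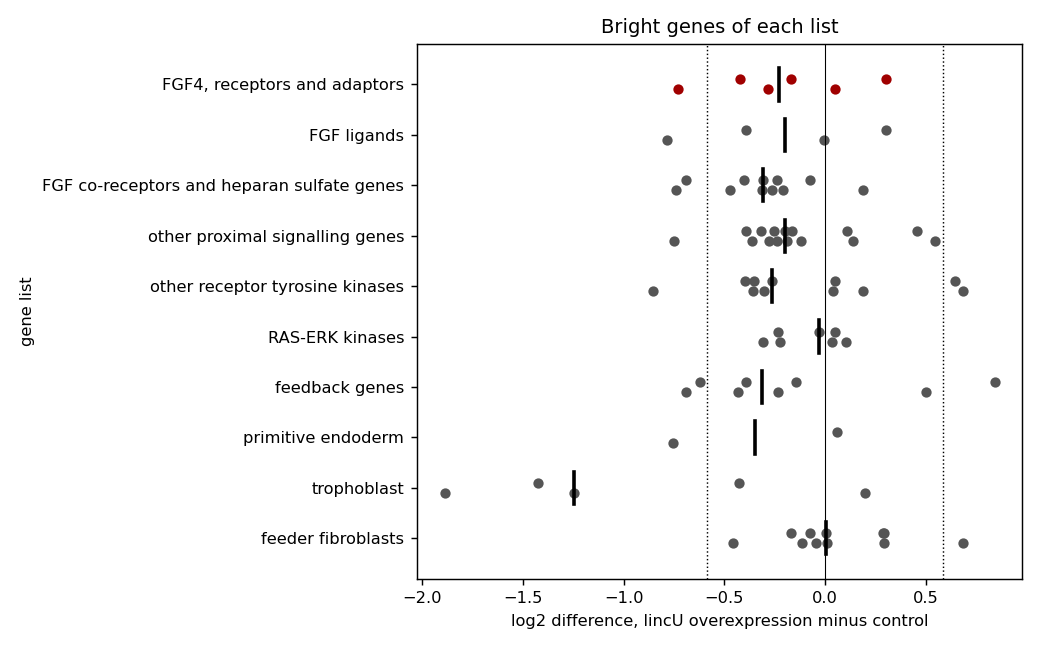
Log2 difference, lincU overexpression minus control (horizontal axis), of the bright genes of each list (rows), with 1 point per gene, a vertical bar at the median and dotted lines at 1.5-fold. The members lie between -0.73 and 0.30, the co-receptor and heparan sulfate genes lie mostly left of 0, the RAS-ERK kinases lie close to 0 and the trophoblast markers reach -1.89.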

How the data were processed

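RNA from the 2 cultures was hybridised to 1 Affymetrix 3' array each. The authors deposited 1 log2 signal for every probe set of an array, the log2 scale being read from the range of the values (0 to 15.26). MAS5 and affy are named in the submitters' processing notes, without version or role. The sources used here do not give the scaling target. No further scaling was applied. Of 16994 probe sets, 15273 had a single gene name in the platform annotation, 501 had several, 1156 had none and 64 were controls. Symbols were updated by gene ID through RefSeq, assembly GRCm38.p6, with 15252 matched. Calculations used Python 3.11.15, pandas 2.3.3 and numpy 2.4.6. The 2-fold rule was tested on simulated arrays, with planted changes larger than that of any bright member. That simulation did not cover the 1.5-fold rule, planted changes near the floor or planted changes as small as those of the bright members. It therefore does not check the member counts. The number of arrays limits the precision.

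Members and lists were chosen with earlier results of these data known. Genes named were all members, Fgf5, and per list the 3 bright genes with the largest difference. Others named were chosen after their values were seen. Alternatives covered scaling, the floor, a pseudocount of 50 on the linear scale, the probe set used and the brightness rule. The name endings _s_at, _x_at and _a_at mark probe sets of shared or mixed type, which can bind several transcripts.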

Additional observations from a re-analysis of the deposited data

How the results depend on the processing

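No paired analysis was possible because each group had 1 array. For the same reason no array could be left out. The members' median stayed negative in all 9 alternatives, between -0.43 with only unshared probe sets and -0.16 after raising the floor to the 40th percentile. The number of members at least 1.5-fold lower, 1 as reported, was 0 with brightness at the 75th percentile or without shared or mixed probe sets, 2 with probe sets averaged and 3 with no brightness rule. With no brightness rule 1 member, Fgfr4, was at least 2-fold lower, where 0 were as reported. Without shared or mixed probe sets 6 members were left, and Fgfr1, Fgfr2 and Grb2 had none. Fgf4 ranged between 0.29 and 0.36, Fgfr2 between -0.73 and -0.61 and Gab1 between -0.32 and -0.14. Fgfr1 was -0.46 with probe sets averaged. Fgfr3 was -0.16 with that higher floor and -0.29 with probe sets averaged. Fgfr4 was -2.48 with no floor, -0.23 with probe sets averaged and 0 with the higher floor. Ptpn11 was -0.70 with probe sets averaged and -0.97 without shared or mixed ones. The cause of these shifts was not tested beyond what each setting leaves out. Centring the arrays moved the median of all bright genes to 0.06. Signal near the floor limits Fgfr3 and Fgfr4.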
